A study of Mus musculus with 12 samples.

Results

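Annexins are proteins that bind the acidic phospholipids of cell membranes when calcium is present. They take part in membrane repair, vesicle traffic, blood clotting and the handling of dying cells, and several of them are abundant in myeloid and endothelial cells. Some are also found outside cells, where annexin A5 covers exposed phosphatidylserine and annexin A1 acts on formyl peptide receptors. Values of 8 annexin genes (Anxa1, Anxa2, Anxa3, Anxa4, Anxa5, Anxa6, Anxa7 and Anxa11) were taken by symbol from a table of 38924 entries, of which 24388 had a value above 0 in at least 1 library.

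RNA had been sequenced from haematopoietic stem and progenitor cells of mouse bone marrow, enriched by bead removal of cells bearing markers of mature lineages, from male C57BL/6 donors aged 4 to 5 weeks. The naive group (replicates 1 to 3 and 7 to 9) was not injected. The brain-recovered group (replicates 4 to 6 and 10 to 12) was given by vein to mice 24 h after cerebral ischaemia and reperfusion, in which the blood supply of the brain is stopped and restored, and was isolated from the brain after a further 24 h. The comparison sets annexin transcripts of cells taken from the injured brain against those of marrow cells kept out of it. The labels do not say whether replicates came from separate animals or preparations, so a p-value here reflects how these libraries vary, which may be technical variation. They also do not say how injected cells were told from the cells of the host brain.

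The libraries were shallow and uneven, with 595748 to 1712988 reads behind the values of a naive library and 764249 to 13074327 behind those of a brain-recovered one. Naive replicates 1, 2 and 3 and brain-recovered replicate 12 had 4380 to 7164 entries above 0, and the other 8 libraries 12066 to 23184. Genes that cells in general use, such as Gapdh and Hprt, were also listed at 0 in several libraries of both groups, so values are given per library and a 0 is given as listed. Values are reads scaled by gene length and by a constant of the library (RPKM-like), so levels can be set side by side between genes of a library. The constant did not follow depth. For Anxa1, 1 read stood for 0.441 in brain-recovered replicate 10 (13074327 reads) and for 0.290 in naive replicate 2 (748792 reads). Differences between libraries thus hold that constant as well as the reads. As an in-library gauge of low values, 756 olfactory receptor entries, genes of the nasal epithelium, were used. The highest of them reached 71.9 to 3721 in naive and 68.6 to 986 in brain-recovered libraries. Of the stem and progenitor markers, 5 of 10 had a usable label. Kit, the stem cell factor receptor, was at most 11.03 in naive and at most 13.9 in brain-recovered libraries, and no marker of that list exceeded the highest olfactory entry of any naive library. The labelled cell type was therefore not visible above this gauge in the naive libraries.

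Labels in stretches of the table are displaced against the values, so the gene length behind each annexin row was recovered from its values and set against the annotation. Recovered and annotated exon lengths were equal for Anxa2 (3731 bases), Anxa4 (4545), Anxa6 (2930) and Anxa11 (4135). They were 2608 against 2692 bases for Anxa1, 1597 against 1595 for Anxa3, 1678 against 1731 for Anxa5 and 2965 against 2917 for Anxa7. All 8 rows were within 5% and were kept, and between 3.18% and 4.93% of all checked entries had a length within 5% of a given member's. The match for the 4 rows of unequal length is thus less specific, and Anxa5 and Anxa1 are among them.

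In GRCm38 the genes lie on 7 chromosomes. Anxa1 (ENSMUSG00000024659) is on chromosome 19, 20373428 to 20390944, on the minus strand. Anxa5 (ENSMUSG00000027712) is on chromosome 3, 36448923 to 36475894, on the minus strand, and Anxa2 (ENSMUSG00000032231) is on chromosome 9, 69453620 to 69491795, on the plus strand. Anxa6 (ENSMUSG00000018340) is on chromosome 11, 54979108 to 55033445, on the minus strand. Anxa7 (ENSMUSG00000021814, 20455260 to 20480133, minus strand) and Anxa11 (ENSMUSG00000021866, 25842156 to 25886804, plus strand) share chromosome 14. Anxa3 (ENSMUSG00000029484) is on chromosome 5, 96793339 to 96845966, on the plus strand, and Anxa4 (ENSMUSG00000029994) is on chromosome 6, 86736840 to 86793584, on the minus strand.

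The promoters of 3 members with unlike values are printed here from the RefSeq table for GRCm38.p6, as the 250 bases before the start site, 5′ to 3′ on the gene's own strand, with motif matches in capitals. Anxa5 was the member that passed the test, Anxa1 was high in 2 brain-recovered libraries, and Anxa2 was below 25 wherever it was measured. They are chr3:36475888-36476137 (minus strand), chr19:20390672-20390921 (minus strand) and chr9:69453433-69453682 (plus strand). The Anxa1 window lies inside the span that GENCODE gives the gene. So do the last 63 bases of the Anxa2 window and the last 7 of the Anxa5 window.
Anxa5: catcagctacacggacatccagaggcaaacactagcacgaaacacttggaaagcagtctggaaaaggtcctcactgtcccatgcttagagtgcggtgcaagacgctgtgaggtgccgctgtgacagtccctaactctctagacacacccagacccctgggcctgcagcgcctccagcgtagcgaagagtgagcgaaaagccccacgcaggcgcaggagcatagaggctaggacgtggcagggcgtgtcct
Anxa1: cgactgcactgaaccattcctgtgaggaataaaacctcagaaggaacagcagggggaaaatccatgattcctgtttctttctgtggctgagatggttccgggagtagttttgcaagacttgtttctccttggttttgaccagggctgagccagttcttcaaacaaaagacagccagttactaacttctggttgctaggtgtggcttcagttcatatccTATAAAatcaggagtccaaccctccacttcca
Anxa2: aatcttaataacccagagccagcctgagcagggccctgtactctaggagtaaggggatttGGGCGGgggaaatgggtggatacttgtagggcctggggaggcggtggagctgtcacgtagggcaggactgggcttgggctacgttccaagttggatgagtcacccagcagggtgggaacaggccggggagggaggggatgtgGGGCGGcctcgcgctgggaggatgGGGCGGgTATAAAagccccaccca
Each motif was searched on both strands, and no match overlapped another. The TATA box, spelled TATAAA, occurs in 12.4% of 32851 promoters of the same length. The CCAAT box, searched by those same letters, occurs in 33.8% of them. The GC box, spelled GGGCGG, occurs in 32.7%. The Anxa5 window held none of them, with 13 CpG dinucleotides and a GC content of 58.8%. The Anxa1 window held a TATA box 32 to 27 bases before the start, with 2 CpG and 46% GC. The Anxa2 window held a TATA box 17 to 12 bases before the start and 3 GC boxes, with 9 CpG and 62.4% GC, where the median over all promoters was 6 CpG and 52.4% GC. Of the 8 members, 6 had RefSeq promoter entries, and among their windows that of Anxa11 held the most CpG, 17, with 3 GC boxes.

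Anxa5 was called higher in the brain-recovered libraries, on high values in replicates 4, 5 and 11, and no other annexin passed the test. It encodes annexin A5, the phosphatidylserine-binding protein whose labelled form is used to stain dying cells. Its values were 0 in naive replicates 1, 2 and 3, 1.59 in replicate 7, 9.58 in replicate 8 and 3.54 in replicate 9. In the brain-recovered group they were 1683 in replicate 4, 4329 in replicate 5, 16.7 in replicate 6, 12.3 in replicate 10, 558 in replicate 11 and 0.471 in replicate 12. By value, replicates 4, 5 and 11 were high, replicates 6 and 10 lay just above the highest naive library, and replicate 12 fell within the naive range. The high values rested on 2056, 8072 and 903 reads, and the value of replicate 12 on 1. Replicates 6 and 10 rested on 14 of 8611300 and 18 of 13074327 reads, and naive replicates 8 and 9 on 9 of 858707 and 9 of 1712988. Set against the reads of their libraries, replicates 6 and 10 were thus below naive replicates 8 and 9.

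The log2(value + 1) difference of Anxa5, brain-recovered minus naive, was 5.57 ± 1.34 (SE, n = 6 per group, 95% interval 2.94 to 8.20, limma adjusted p = 0.0134). An exact two-sided permutation test of the same difference over all 924 assignments of the libraries gave p = 0.0173. The limma SE, interval and p of each entry rest wholly on a spread shared by entries of similar level. The spread of Anxa5 itself did not enter them. Its own SD of log2(value + 1) was 1.43 in the naive and 4.56 in the brain-recovered group. In the fit over 17689 entries, 65 were called higher (0.367%) and 0 lower (0%, with 31 lower at an unadjusted p under 0.05), against 1 and 0 of the 8 annexins. Anxa5 had rank 50 by size of difference. In bulk RNA, more cells of a kind that holds Anxa5 and more Anxa5 RNA per cell cannot be told apart.

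The Anxa5 call was lost with quantile normalization (limma adjusted p = 0.831), scaling to library totals (0.638), a pseudocount of 10 (0.856), a robust spread (0.170) and without the 4 sparse libraries (0.977), with differences of 3.84 to 5.64. It was also lost on leaving out any of 6 libraries. The limma adjusted p was 0.0704 without naive replicate 1, 0.0516 without 2 and 0.0551 without 7. It was 0.137 without brain-recovered replicate 4, 0.247 without 5 and 0.0853 without 11, with differences between 4.50 and 5.61 in these 6 fits, and 0.000171 without 12. The libraries are numbered in 2 runs, and the labels do not say what the numbers mark. The difference was 8.98 within libraries 1 to 6 (limma adjusted p = 0.0287) and 2.15 within libraries 7 to 12 (limma adjusted p = 0.790). The whole table moved with the runs. Within libraries 1 to 6 the median of all entries was 2.35 and 5320 of 17689 (30.1%) were called higher, and within libraries 7 to 12 the median was -1.07 and 0 (0%) were, with 171 higher and 748 lower in limma at an unadjusted p under 0.05.

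**Figure D1:**
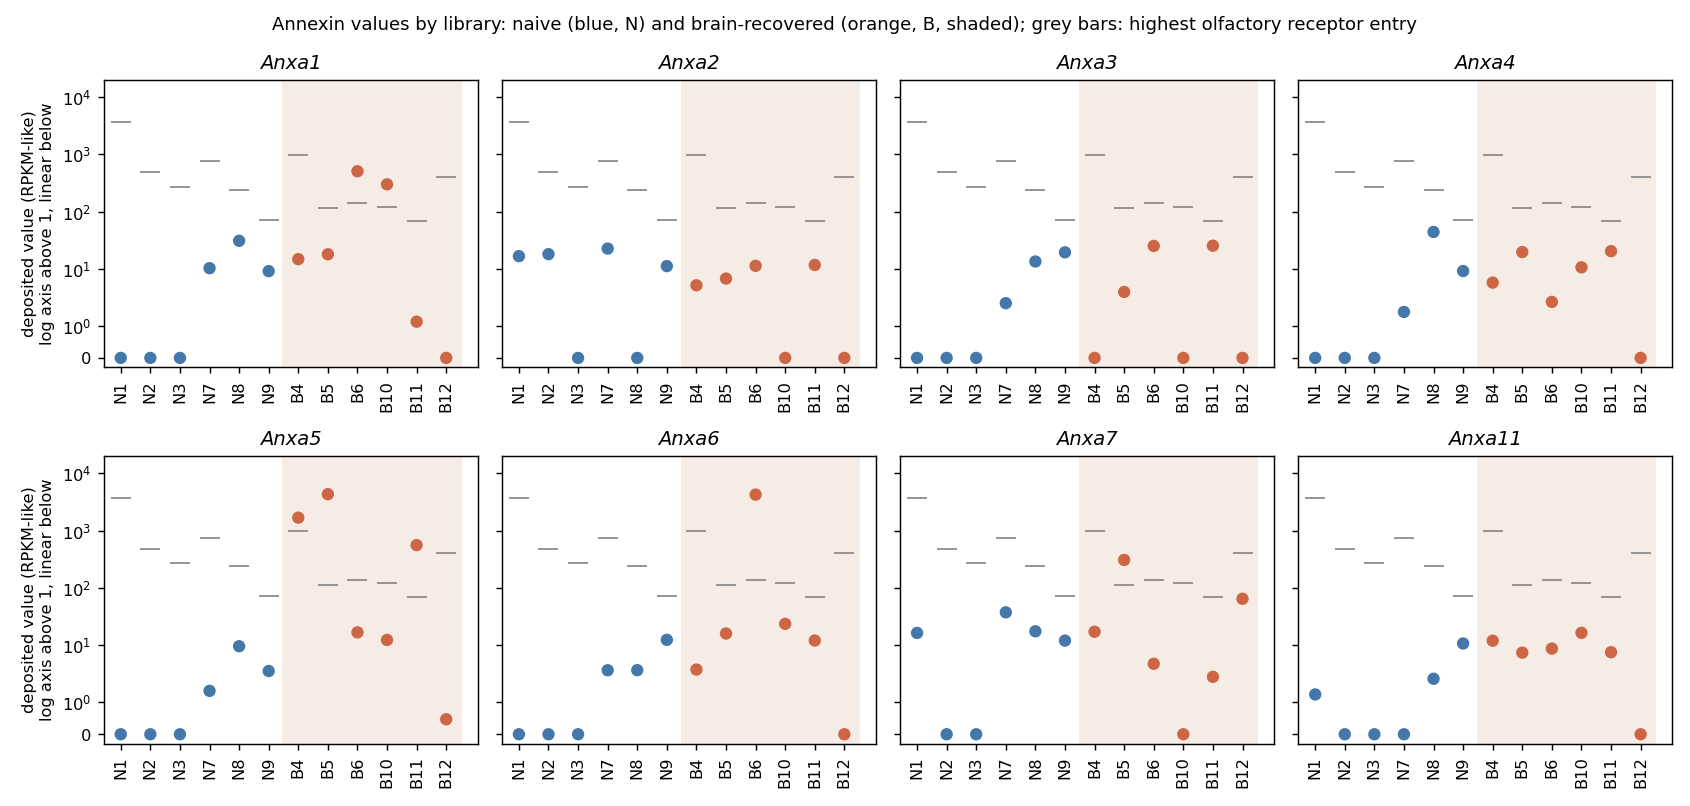
Deposited value (RPKM-like) of each annexin in each library, on a log axis that is linear below 1, for naive (blue, N) and brain-recovered (orange, B, shaded) libraries, with grey bars at the highest olfactory receptor entry of that library. The brain-recovered points above the bars are Anxa5 in 3 libraries, Anxa1 in 2, and Anxa6 and Anxa7 in 1 each, while no naive point lies above its bar.

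The plot of values by library shows both the level of each point and the gauge of its library. A point under its grey bar is at a level that olfactory receptor genes also reach there.

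Anxa1 encodes annexin A1, a ligand of formyl peptide receptors that is induced by glucocorticoids and limits the entry of neutrophils into inflamed tissue. It was listed at 0 in naive replicates 1, 2 and 3, and stood at 10.3, 30.8 and 9.11 in replicates 7, 8 and 9. The brain-recovered values were 14.7, 17.9 and 505 in replicates 4, 5 and 6 and 299, 1.19 and 0 in replicates 10, 11 and 12. By value, replicates 6 and 10 lay above every naive library, and the other 4 within the naive range. These 2 values rested on 658 of 8611300 and 677 of 13074327 reads, and that of naive replicate 8 on 45 of 858707. Set against the reads of its library, replicate 10 was thus not above naive replicate 8. The log2 difference was 2.46 ± 1.29 (SE, n = 6 per group, limma adjusted p = 0.820, exact permutation p = 0.171). It was 5.73 within libraries 1 to 6 (limma adjusted p = 0.0262) and -0.82 within libraries 7 to 12 (limma adjusted p = 0.901), beside medians of all entries of 2.35 and -1.07. Labels of the formyl peptide receptors were not used here, since none of 3 agreed in length.

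Anxa2 encodes annexin A2, which with S100A10 binds plasminogen and its activator at the surface of endothelial cells. Its naive values were 16.6, 18.0 and 0 in replicates 1, 2 and 3 and 22.6, 0 and 11.1 in replicates 7, 8 and 9. The brain-recovered values were 5.15, 6.75 and 11.3 in replicates 4, 5 and 6 and 0, 11.7 and 0 in replicates 10, 11 and 12. The groups overlapped throughout, and none of the 6 brain-recovered libraries exceeded the highest naive one. Anxa2 was the 1 annexin with a difference below 0, at -0.62 ± 1.23 (SE, limma adjusted p = 0.993, 95% interval -3.02 to 1.79), and the sign turned to 0.27 within libraries 1 to 6 and to 0.03 with library weights.

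Anxa6, Anxa7 and Anxa4 encode annexins of internal and plasma membranes. Annexin A6 takes part in endosomal traffic and membrane repair. Anxa6 was listed at 0 in naive replicates 1, 2 and 3 and stood at 3.65, 3.66 and 12.4 in replicates 7, 8 and 9. The brain-recovered values were 3.75, 16.0 and 4254 in replicates 4, 5 and 6 and 23.6, 12.04 and 0 in replicates 10, 11 and 12. One library set the level, since replicate 6 held 6224 reads and the next highest value was that of replicate 10. The log2 difference was 3.09 ± 1.27 (SE, limma adjusted p = 0.586, unadjusted p = 0.0147, exact permutation p = 0.0823). It was 1.57 without brain-recovered replicate 6, 6.13 within libraries 1 to 6 and 0.05 within libraries 7 to 12.

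Anxa7 encodes annexin A7, first described as synexin for its part in the fusion of secretory granules. Its values were 16.4, 0 and 0 in naive replicates 1, 2 and 3 and 37.4, 17.5 and 12.02 in replicates 7, 8 and 9. They were 17.1, 308 and 4.73 in brain-recovered replicates 4, 5 and 6 and 0, 2.80 and 64.5 in replicates 10, 11 and 12. Replicates 5 and 12 exceeded the naive libraries, on 1014 and 242 reads, while 3 others lay at or below 4.73. The difference was 0.94 ± 1.30 (SE, limma adjusted p = 0.986) and was 0.05 to 1.70 with 1 library left out in turn. It was 3.62 within libraries 1 to 6 and -1.74 within libraries 7 to 12, neither past the threshold.

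Anxa4, which encodes an annexin of epithelial and secretory cells, was listed at 0 in naive replicates 1, 2 and 3 and stood at 1.76, 44.0 and 9.15 in replicates 7, 8 and 9. The brain-recovered values were 5.74, 19.6, 2.64, 10.6, 20.3 and 0 in replicates 4, 5, 6, 10, 11 and 12. No brain-recovered library passed the highest naive one, and the difference was 1.11 ± 1.20 (SE, limma adjusted p = 0.978). It was 2.99 within libraries 1 to 6 (limma adjusted p = 0.0208), where the 3 naive libraries were the sparse ones listed at 0, and -0.78 within libraries 7 to 12 (limma adjusted p = 0.903).

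Anxa11 encodes annexin A11, which binds the calcium-binding proteins ALG-2 and S100A6 and tethers RNA granules to lysosomes in neurons. Naive replicate 1 stood at 1.38, replicates 2, 3 and 7 were listed at 0, and replicates 8 and 9 stood at 2.59 and 10.7. The brain-recovered values were 11.96, 7.40, 8.72, 16.4, 7.53 and 0 in replicates 4, 5, 6, 10, 11 and 12. Brain-recovered values other than that of replicate 12 were of one size, and by value 2 of the 6 exceeded the highest naive library. These were replicates 4 and 10, on 36 of 2803201 and 59 of 13074327 reads, against 67 of 1712988 in naive replicate 9. Set against the reads of its library, neither was above naive replicate 9. The difference was 1.77 ± 1.15 (SE, limma adjusted p = 0.919, exact permutation p = 0.0736). It was 2.93 within libraries 1 to 6 (limma adjusted p = 0.0103) and 0.61 within libraries 7 to 12 (limma adjusted p = 0.920).

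Anxa3, which encodes an annexin found in neutrophils, was listed at 0 in naive replicates 1, 2 and 3 and in brain-recovered replicates 4, 10 and 12. It stood at 2.51, 13.4 and 19.4 in naive replicates 7, 8 and 9 and at 3.94, 25.1 and 25.3 in brain-recovered replicates 5, 6 and 11. The groups overlapped, with the same number of libraries at 0 in each. The difference was 0.29 ± 1.10 (SE, limma adjusted p = 1.00) and turned sign on leaving out any of 5 libraries, naive replicates 1, 2 and 3 and brain-recovered replicates 6 and 11. It was 2.34 within libraries 1 to 6 and -1.76 within libraries 7 to 12, neither past the threshold.

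**Figure D2:**
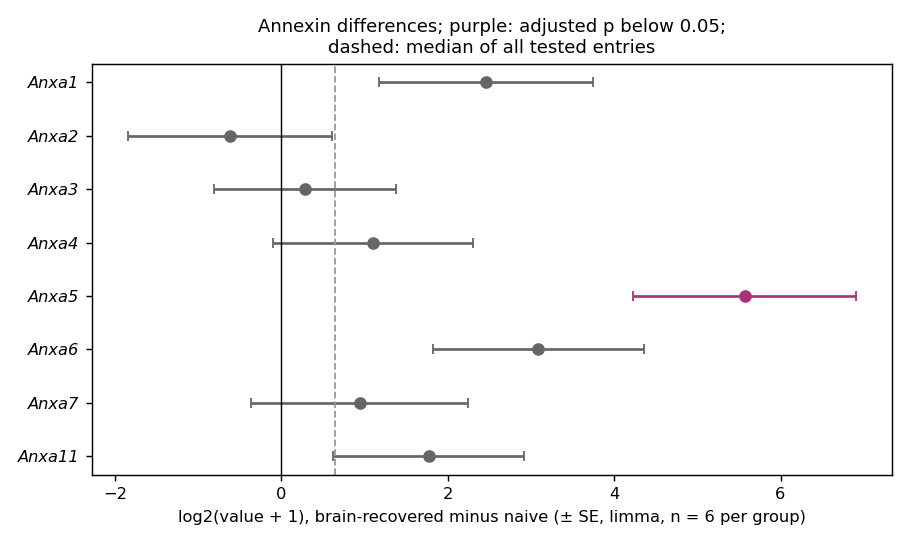
Difference of log2(value + 1), brain-recovered minus naive, for each annexin (points, with bars of ± SE from limma, n = 6 libraries per group), with the median of all tested entries as a dashed line at 0.64. Anxa5 at 5.57 (purple) is the annexin past an adjusted p of 0.05, and Anxa2 at -0.62 is the one below 0.

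The plot of differences sets the 8 annexins beside the whole table. Their median difference was 1.44, with 7 of 8 above 0, and that of all tested entries was 0.64, with 13184 of 17689 (74.5%) above 0. At an unadjusted p under 0.05, 2 of 8 were higher, where 6.08% of all tested entries were. Of the 8, 0 were lower by that measure, as were 0.175% of all. By value, Anxa5 was the 1 annexin with 5 brain-recovered libraries above all 6 naive ones. Of tested entries, 1.75% had at least 5 such libraries and 0.147% had all 6. At least 3 were found for Anxa5 and Anxa6 and for 14.5% of tested entries. Set against the reads of their libraries, Anxa5 in replicates 6 and 10 was below naive replicates 8 and 9. By that measure Anxa6 in replicates 5 and 10 was below naive replicate 9. The shares over all entries were counted by value alone. Anxa5 was also the 1 annexin with a difference above 5, as were 0.373% of tested entries.

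By median level, Anxa7 (14.2) and Anxa2 (13.9) came first in the naive group, before Anxa1 (4.55), Anxa6 (1.82), Anxa3 (1.26), Anxa4 (0.882), Anxa5 (0.797) and Anxa11 (0.690). In the brain-recovered group Anxa5 (287) came first, before Anxa1 (16.3), Anxa6 (14.0), Anxa7 (10.9), Anxa4 (8.18), Anxa11 (8.12), Anxa2 (5.95) and Anxa3 (1.97). The ranges over libraries of every neighbouring pair overlapped in both orders. Anxa5 thus stood next to last by median in the naive cells and first in the brain-recovered cells.

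Each brain-recovered library drew most of its annexin signal from 1 gene, and that gene was not the same in all. The 8 values summed to 1741, 4709, 4828, 361, 639 and 65.0 in replicates 4, 5, 6, 10, 11 and 12. Anxa5 made up 96.6%, 91.9% and 87.3% of the sum in replicates 4, 5 and 11. The largest share was that of Anxa6 in replicate 6 (88.1%), of Anxa1 in replicate 10 (82.6%) and of Anxa7 in replicate 12 (99.3%). The naive sums were 34.4, 18.0 and 0 in replicates 1, 2 and 3 and 79.8, 122 and 87.4 in replicates 7, 8 and 9. In those last 3 the largest share was 46.9% or less, and in naive replicate 2 the whole sum was Anxa2.

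**Figure D3:**
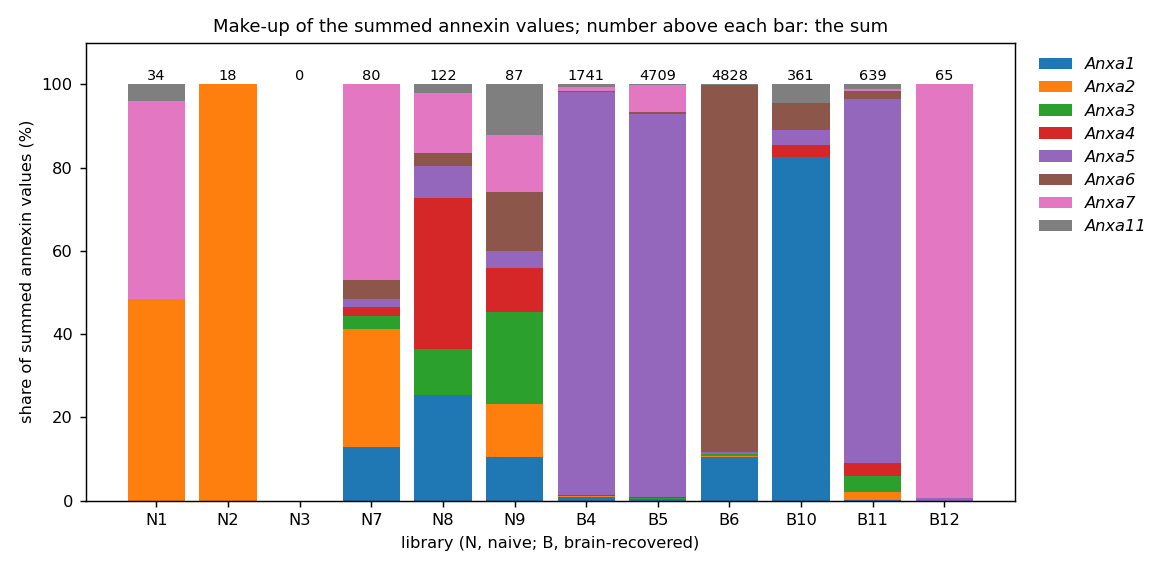
Share of the summed annexin values (%) taken by each of the 8 genes in each library, with the sum in RPKM-like units above each bar. In the brain-recovered libraries (B) 1 gene takes 82.6% to 99.3% of the sum, and naive library 3 has no bar because all 8 genes are listed at 0.

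The plot of shares shows the change of leading gene from library to library. Of the 48 annexin values in each group, 26 were above 0 in the naive and 38 in the brain-recovered group. Among those, 0 and 7 exceeded every olfactory receptor entry of their own library. Over all tested entries, 0.191% of naive and 2.47% of brain-recovered values did so, from 0.136% in replicate 12 to 4.82% in replicate 6. The 7 values were Anxa5 in replicates 4, 5 and 11, Anxa1 in replicates 6 and 10, Anxa6 in replicate 6 and Anxa7 in replicate 5. Anxa5 reached percentiles 99.4, 99.9 and 99.3 of the values above 0 in its 3 libraries. The annexin values above 0 had a median of 10.9 in the naive and 13.5 in the brain-recovered group. The groups thus differed both in how many annexin values were listed at 0, 22 against 10, and in the 7 high values. Most zeros lay in the sparse libraries. Annexins above 0 numbered 3, 1 and 0 in naive replicates 1, 2 and 3 and 2 in brain-recovered replicate 12. Every other library had at least 5. The sparse libraries also had the fewest entries above 0 in the whole table, 4380 to 7164. The difference in annexin zeros was not set against that of all entries.

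Across the 12 libraries, Pearson's r of log2(value + 1) between 2 annexins ran from -0.12 (Anxa4 and Anxa2) to 0.83 (Anxa6 and Anxa1), given as a description of libraries that share their zeros and their depth. Anxa6 and Anxa1 were both at 0 in naive replicates 1, 2 and 3 and brain-recovered replicate 12 and both high in replicate 6, but Anxa1 was high and Anxa6 low in replicate 10. Among 10396 other entries of exact length, the 5 most like the mean of the annexins were Tex45 (r = 0.968), Itsn2 (0.967), Slc35e1 (0.967), Gpr176 (0.962) and Fignl2 (0.959). All 5 were listed at 0 in naive replicates 1, 2 and 3. The 5 most like Anxa5, the member with the highest mean, were Plut (0.910), Prickle3 (0.895), Gm2155 (0.891), Egfl6 (0.886) and Parp12 (0.878). Parp12, the most abundant of these 5, stood at 27.2, 505 and 47.0 in brain-recovered replicates 4, 5 and 11, below Anxa5 in each. Plut, Prickle3, Gm2155 and Egfl6 were at most 42.8 in any library, below the highest olfactory entry of each library.

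Of the 8 usable S100 and EF-hand partners of annexins, S100a10, S100a11, S100a6, S100a4 and Sri exceeded every olfactory entry in at least 1 brain-recovered library, and S100a1, S100b and Pef1 in none. S100 proteins are small EF-hand dimers, most of them calcium-binding, that join pairs of annexins, S100A10 with annexin A2, S100A11 with annexin A1 and S100A6 with several. Of 9 such genes in the list, 6 were tested. None passed the adjusted threshold in limma. At an unadjusted p under 0.05, 4 of 6 were higher and 1 was lower, beside 6.08% and 0.175% of all tested entries, and the median difference was 3.32, beside 0.64. The lower one was S100a1 (-2.69 ± 1.20, SE, limma adjusted p = 0.673), at most 139 in the naive and 16.9 in the brain-recovered group. S100b was at most 28.9 and 9.26 in the same order, and Pef1 differed by 0.37 ± 1.07. S100a11 was listed at 0 in all naive libraries and in 3 brain-recovered ones, and stood at 1021, 689 and 10.2 in replicates 4, 5 and 11, the libraries high in Anxa5. It was too sparse to be tested.

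S100a10 was 9.93 and 14.2 in naive replicates 7 and 9 and 0 in the other 4. It was 68.0, 5.20, 894, 26.6, 15.4 and 0 in brain-recovered replicates 4, 5, 6, 10, 11 and 12 (log2 difference 3.33 ± 1.26, SE, limma adjusted p = 0.489). Its highest library was also that of Anxa6 and Anxa1, while its partner Anxa2 stood at 11.3 there. S100a6 was 2471 and 9764 in brain-recovered replicates 5 and 10, at most 30.6 in the other 4 and at most 24.2 in the naive group (4.59 ± 1.33, SE, limma adjusted p = 0.113). Sri, which encodes sorcin, a partner of annexin A7, was 5020 and 6443 in brain-recovered replicates 4 and 6 and at most 34.4 elsewhere (3.32 ± 1.36, SE, limma adjusted p = 0.586). Anxa7 stood at 17.1 and 4.73 in those 2 libraries.

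**Figure D4:**
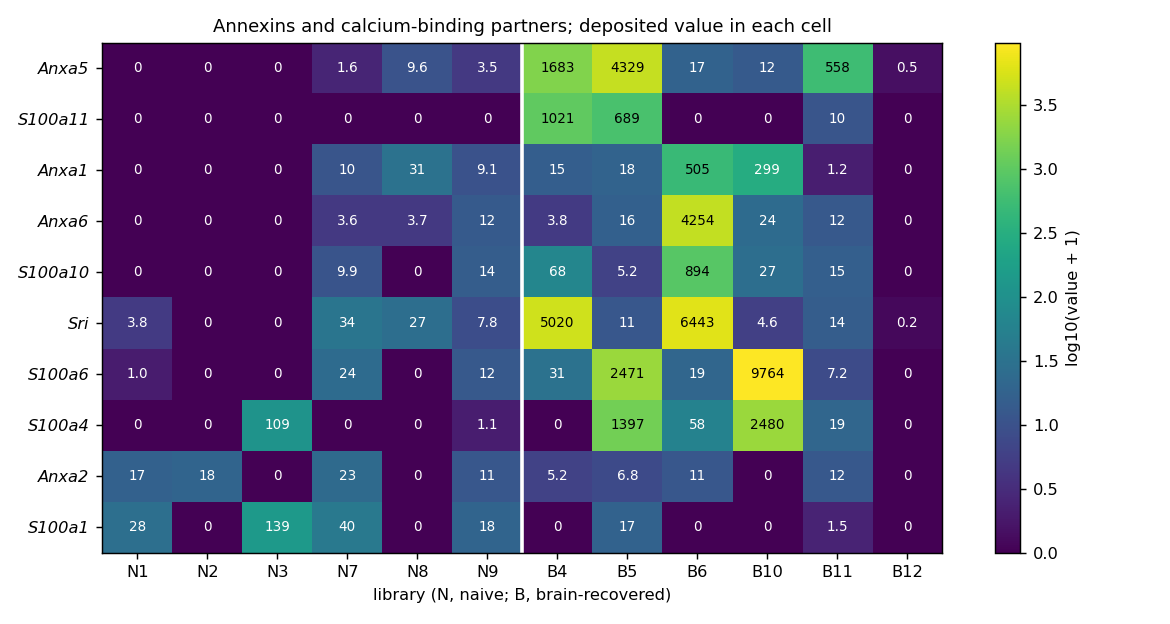
Deposited values (RPKM-like) of 4 annexins and 6 S100 and EF-hand partners in each library, printed in the cells and coloured by log10(value + 1), with naive libraries (N) left of the white line and brain-recovered libraries (B) right of it. S100a11 at 1021 and 689 and Anxa5 at 1683 and 4329 are high in B4 and B5, S100a10 at 894 and Anxa1 at 505 in B6, and S100a6 at 9764 with Anxa1 at 299 in B10.

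The map of partners shows high cells scattered over the brain-recovered libraries, with a different set of genes in each. Of 19 genes of phosphatidylserine exposure and recognition, 16 were tested and none passed the adjusted threshold in limma (1 of 16 higher and 0 lower at an unadjusted p under 0.05, near the 6.08% and 0.175% of all entries, median difference 0.50 beside 0.64). Axl, a receptor for phosphatidylserine bridged by Gas6, was 9663 in brain-recovered replicate 6 and at most 16.1 elsewhere, and Gas6 was 1842 in replicate 5 and at most 34.8 elsewhere. Of 8 plasminogen genes 7 were tested, and of 16 membrane repair genes 12 were. Neither list had a call in limma (1 of 7 and 1 of 12 higher and 0 lower at an unadjusted p under 0.05, beside the same 6.08% and 0.175%), with medians of 0.66 and 0.90. Plat, which encodes tissue plasminogen activator, and Cavin1, a coat protein of caveolae, were 3694 and 5880 in replicate 6, and Capns1, the small calpain subunit, was 24224 in replicate 10.

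Among 8 housekeeping genes 4 were tested, and Actb, beta-actin, was called higher (7.26 ± 1.49, SE, limma adjusted p = 0.00198). It is the 1 gene of the partner and reference lists that passed. The 4 annexins outside the 8 were sparse. Anxa8 was listed at 0 in every library, and Anxa9, Anxa10 and Anxa13 were above 0 in 4 or 5 libraries each, at most 60.5 (Anxa13 in naive replicate 8).

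Marker sums of several cell types were high in some libraries, and these were in part the libraries high in an annexin. Of the oligodendrocyte markers all 6 were usable, none was at 0 in every library, and their summed values spanned 16.6 to 82.9 over naive and 37.0 to 25080 over brain-recovered libraries. The sums were 6179 and 7430 in replicates 4 and 5, where Anxa5 was highest, 25080 in replicate 6, 288 in replicate 11, 37.0 in replicate 10 and 53.0 in replicate 12. Mbp, myelin basic protein, made up 4239, 5174 and 6044 of the sums in replicates 4, 5 and 6. In replicate 11, where Anxa5 was 558, Mobp was 245 and above the olfactory entries, and each of the other 5 markers was at most 13.1. In replicate 6, where Anxa5 was 16.7, 5 of the 6 markers were above the olfactory entries. The part of these cells in the Anxa5 difference was not tested.

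The sum of the 6 usable endothelial markers spanned 43.5 to 141 over naive and 1.90 to 14395 over brain-recovered libraries, with its highest values in replicates 6 (14395) and 10 (6489), the libraries high in Anxa1. Ly6c1, which some leukocytes also express, held 13010 and 6464 of these sums. In replicate 10 Cldn5, Cdh5 and Tek were listed at 0 and Kdr was 22.4, and in replicate 6 Cdh5 was 1309. That of the 4 usable pericyte markers was at most 57.8 in the naive group and 17.9 to 7128 in the brain-recovered group, highest in replicate 6, where Anxa6 was 4254, and Rgs5 held 6767 of it. The 8 microglial markers spanned 5.34 to 135 and 1.56 to 21180, with 21180 in replicate 10, of which C1qa held 19416, while P2ry12 was at 0 in every library. The 6 astrocyte markers reached 84.7 in the naive and 2174 in the brain-recovered group, with Gfap at 0 throughout. The labels of P2ry12 and Gfap could not be checked by length, so their zeros do not show that these genes were absent. The sum of the 4 usable markers of primary granules, made by early myeloid cells, spanned 1.31 to 26.4 over naive and 122 to 29329 over brain-recovered libraries. The groups did not overlap in this sum but did in each of the 4 genes. In replicate 12 Ctsg was 121.5, and Mpo, Prtn3 and Srgn were at most 0.457. All 4 lay below the highest olfactory entry of that library (399), so the lowest brain-recovered sum rested on 1 value under the gauge. The 4 usable neutrophil markers summed to at most 6458 in naive and 8067 in brain-recovered libraries, nearly all from S100a9 (6458 in naive replicate 1 and 8025 in brain-recovered replicate 4). Ltf, Mmp8 and Retnlg were at most 0.260 in naive replicate 1, where Anxa3 and Anxa1 were listed at 0. S100a9 was 4466 in naive replicate 3, where all 8 annexins were listed at 0. The 3 usable platelet markers summed to 10250 in naive replicate 1, where the annexin sum was 34.4, and to at most 31.8 in the brain-recovered group. The highest sum of any list was that of the 5 usable stem and progenitor markers in brain-recovered replicate 6, the library high in Anxa6 and Anxa1. It was 35128, of which Ly6a held 35095. The sums there were also 26290 for the 3 usable T cell markers (Trac 26281) and 1343 for the 4 usable erythroid markers (Hba-a1 1317). In the naive group these 3 sums were at most 57.3, 99.4 and 43.3. The part of these cell types in the annexin values was not tested.

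**Figure D5:**
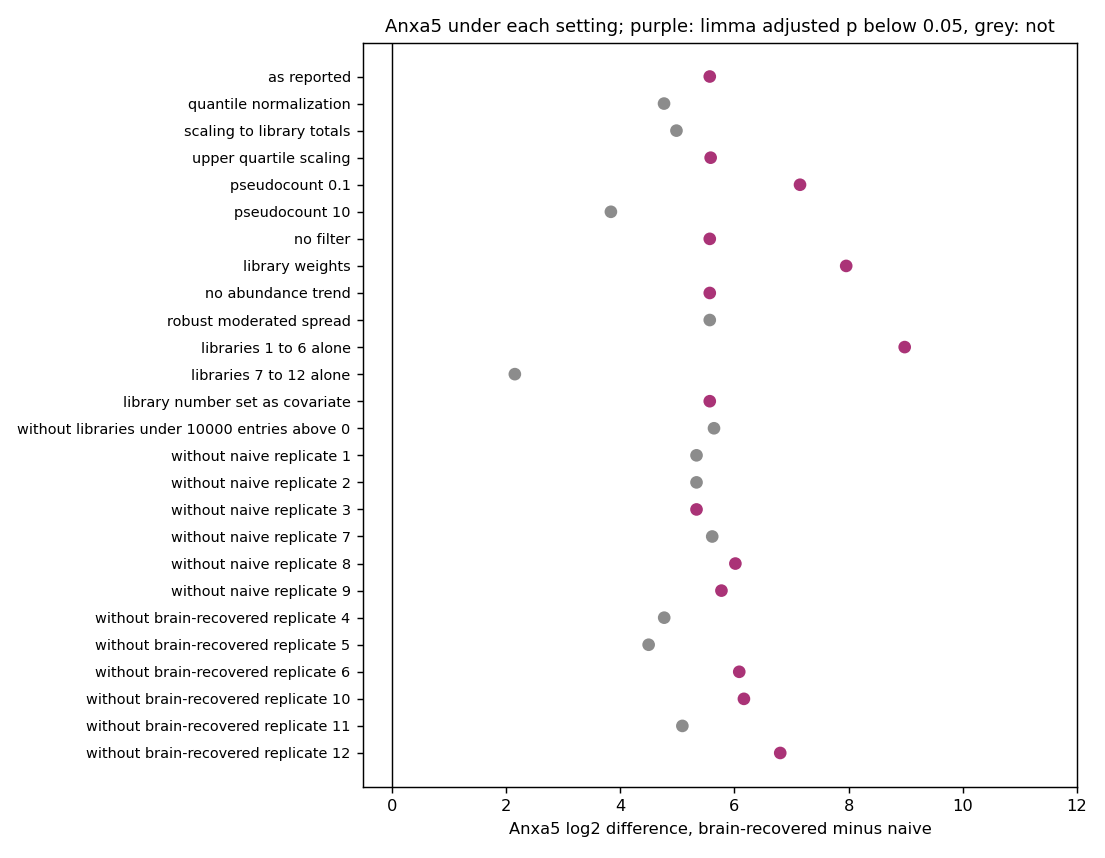
Log2 difference of Anxa5, brain-recovered minus naive, as reported and under each alternative that changes 1 choice of processing or leaves out 1 library, coloured purple where the limma adjusted p is below 0.05. The differences lie between 2.15 and 8.98, all above 0, and 12 of the 25 alternatives shown are grey.

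The plot of settings shows that the sign of the Anxa5 difference was the same in every fit drawn, while its call was not. The alternatives themselves are described with the dependence on processing.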

How the data were processed

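RNA was measured in 12 libraries, 6 per group, grouped by title. Lysates were amplified as cDNA with a low-input kit and Nextera XT libraries were run on an Illumina sequencer, per the labels' protocols. Per the submitters' processing notes, Trimmomatic 0.32 and GRCm38 were used. Aligner and counter: not given in the sources used here.

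Under a header that names no unit, the authors deposited 1 value per entry and library. The values deposited by the authors were treated as RPKM, because 23736 of 23737 entries with at least 2 values above 0 divided into whole reads over 1 length (tolerance 0.004 of a read). Amplified reads carried no molecular identifiers, so they are not independent molecules. Lengths were set against GENCODE M21 exon unions over transcripts with identifier numbers up to 185000, a limit chosen for giving the most matches. Of 22545 checked entries, 13446 (59.6%) matched exactly and 80.1% within 5%. Only those labels were used, apart from rows at 0 in every library, such as Gfap, P2ry12 and Anxa8. Such rows hold no length to check, so their labels may be displaced. No column came from other samples, and no 2 libraries held the same values.

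The group difference was fitted in R 4.3.3 with limma 3.58.1 on log2(value + 1), for entries of at least 1 in at least 6 libraries (17689, all 8 annexins included), with an abundance trend, Benjamini-Hochberg adjustment over all entries and a threshold of 0.05. The fit was tested on simulated data with low means raised to high levels and normal noise. That test does not cover the many zeros and uneven spreads of these data. A difference on this scale understates the change of low genes. Exact permutation tests, promoters and figures used Python 3.11.15 with scipy 1.17.1, matplotlib 3.10.9, pandas 2.3.3 and numpy 2.4.6. The genes named were all members, their direct partners with usable labels, any listed gene past the threshold, and the 5 entries most alike in pattern. Others are named from their high values, after these were seen. The members and lists were chosen with earlier results of these data known. Protein sequences were not used here. Other normalizations, pseudocounts, filters, weights, spread estimates and library subsets were tried.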

Additional observations from a re-analysis of the deposited data

Results flagged for a closer look

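In 7 of the 16 sets of 6 annexin values, the gap between the highest library and the next, divided by the range, exceeded Dixon's 95% critical value of 0.625. Chance flags about 1 in 20 sets of normally spread values, and these sets are not normally spread, since many hold zeros.

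In the brain-recovered group the sets were Anxa6, with 4254 in replicate 6, and Anxa7, with 308 in replicate 5. In the naive group they were Anxa1 (30.8), Anxa4 (44.0) and Anxa5 (9.58), each highest in replicate 8, and Anxa6 (12.4) and Anxa11 (10.7), each highest in replicate 9. The naive values lay below the highest olfactory receptor entry of their library, and the brain-recovered values above it. Replicates 8 and 9 were among the 3 naive libraries with over 10000 entries above 0. The cause of these gaps was not tested.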

How the results depend on the processing

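No paired analysis was possible because the groups share no replicate numbers. The count of 65 called entries was 0 with quantile normalization, 0 with scaling to library totals, 0 with a pseudocount of 10, 0 within libraries 7 to 12 and 0 without the 4 libraries under 10000 entries above 0 (557, 197, 876, 171 and 465 higher and 497, 382, 56, 748 and 298 lower in limma at an unadjusted p under 0.05). It was 33 when values had to reach 10 in 6 libraries, 115 with no abundance trend, 7 with a robust spread, 28 over entries of exact length and 5320 within libraries 1 to 6. With 1 library left out it ran from 37 (naive 8) to 229 (brain-recovered 12), and was 39 without naive 1, 43 without naive 9 and 42 without brain-recovered 11. The median of all entries moved from 0.64 to -0.06 with quantile normalization, -0.29 with library totals, 2.35 within libraries 1 to 6, -1.07 within 7 to 12 and -0.03 without the 4 sparse libraries.

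The Anxa5 difference stayed above 0 and lost its call with quantile normalization (4.77, limma adjusted p = 0.831), library totals (4.98, 0.638), a pseudocount of 10 (3.84, 0.856), a robust spread (5.57, 0.170), libraries 7 to 12 (2.15, 0.790) and without the sparse libraries (5.64, 0.977). With 1 library left out it was 4.50 to 6.80, with adjusted p from 0.000171 to 0.247. It had no value under the filter at 10. Past the threshold within libraries 1 to 6 were also Anxa1 (5.73), Anxa4 (2.99) and Anxa11 (2.93), where 30.1% of all entries were called.

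Signs turned within libraries 7 to 12 for Anxa1 (-0.82), Anxa3 (-1.76), Anxa4 (-0.78) and Anxa7 (-1.74), and without the sparse libraries for Anxa3 (-0.99), Anxa4 (-0.047) and Anxa7 (-1.01). Anxa2 turned to 0.27 within libraries 1 to 6 and 0.027 with library weights. Anxa3 turned to -0.16 with quantile normalization, -0.19 with library totals, -0.091 with library weights and -3.80 as percentile points, and ran from -0.27 to 0.82 with 1 library left out. Anxa7 was -0.29 percentile points. The causes were not tested. The depth and the zeros of the sparse libraries limit every difference here, and values of a few reads carry large counting error.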
